A study of Aspergillus terreus with 6 samples.

Results

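The genes described here were the annotated genes of the filamentous fungus Aspergillus terreus whose RNA was lower in 2 of the 3 control libraries than in every other library of the series. Levels were CPM (a gene's count scaled to 1000000 counts per library, by the column sum), taken as log2(CPM + 1). A gene was a member when its lowest level among metal libraries 1, 2 and 3 and control library 2 was at least 1 log2 unit above its highest level in control libraries 1 and 3. This gave 98 genes of the 10784 annotated identifiers, in a table of 11680 features in all. The members were thus chosen by these same values, and every level, fold and share that follows from that choice is a description and carries no test.

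The libraries came from shaken cultures of wild-type strain AT2022, kept at 32 °C and 180 rpm and harvested as mycelia on day 2. The metal group (n = 3) was labelled as treated with ZnSO4·2H2O at 0.25 g/L and FeSO4·2H2O at 0.40 g/L. The control group (n = 3) was labelled as untreated and its label names the same salts at 0.15 and 0.16 g/L, and it is unclear from that wording if the control medium held them. A protocol text common to all samples mentions taurine and no metal salt, and the treatment is therefore stated here from the sample labels alone. Separate cultures are not claimed for the replicates, so p-values refer to the variation among the libraries at hand, which could be technical.

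A. terreus is grown industrially for itaconic acid, which it makes by decarboxylating cis-aconitate, an intermediate of the citric acid cycle, and then exports. Iron and zinc bear on this route in general because aconitase carries an iron-sulphur cluster and many enzymes and transcription factors of fungi bind zinc. In Aspergillus species, genes of 1 metabolic pathway, above all of secondary metabolism, often lie side by side and are switched on together. None of the 11680 identifiers matched a locus tag, accession or synonym among the 10551 genes of the reference strain NIH2624 (assembly ASM14961v1), and the files pair no identifier with a name, product or position. No role can therefore be given to any of the 98 genes. Only 2 identifiers are printed, and the other members are called by their rank of mean CPM over metal 1 to 3 and control 2.

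Total counts per library ran from 32607821 to 35124387 in the metal group and from 25097838 to 31981700 in the control group. Control 2 lay nearer the metal mean than the mean of the other controls. Over the 7793 annotated genes that are not members and had at least 1 CPM in each of metal 1 to 3 and control 2, its median absolute difference was 0.16 log2 units from the metal mean and 0.40 from the mean of controls 1 and 3. Controls 1 and 3 differed from each other by a median of 0.33 over the 7891 such genes, members included. The 2 means are over unlike numbers of libraries, and the CPM filter did not use controls 1 and 3. The counts of members, their ratios, the neighbour shares and the labelled test are also given without control 2. In bulk RNA, fewer cells with a transcript and less transcript per cell cannot be told apart.

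The 98 genes had counts in every library, down to 0.250 CPM in control 1 and 0.120 CPM in control 3. They were at a lower level in controls 1 and 3. Their median level was 33.8, 33.7 and 30.6 CPM in metal 1, 2 and 3, 38.8 CPM in control 2, against 9.26 and 8.11 CPM in controls 1 and 3. The metal libraries and control 2 lay close together, and controls 1 and 3 lay below them, as the rule requires. Mean levels over metal 1 to 3 and control 2 ranged from 2.49 to 4750 CPM, so the group spans rare to abundant transcripts. Of the members, 29 averaged at least 100 CPM in those 4 libraries, 5 of them at least 1000 CPM, and 10 were under 10 CPM. Ranked among all annotated genes by mean CPM over the 6 libraries, the median member stood at the 61st percentile, 15 members were in the top 10%, and none was under the 25th percentile. With the pseudocount of 1, a gene under 1 CPM in any library of the higher side could not qualify. Of the 7891 annotated genes with at least 1 CPM in each of those 4 libraries, 1.24% were members.

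**Figure D1:**
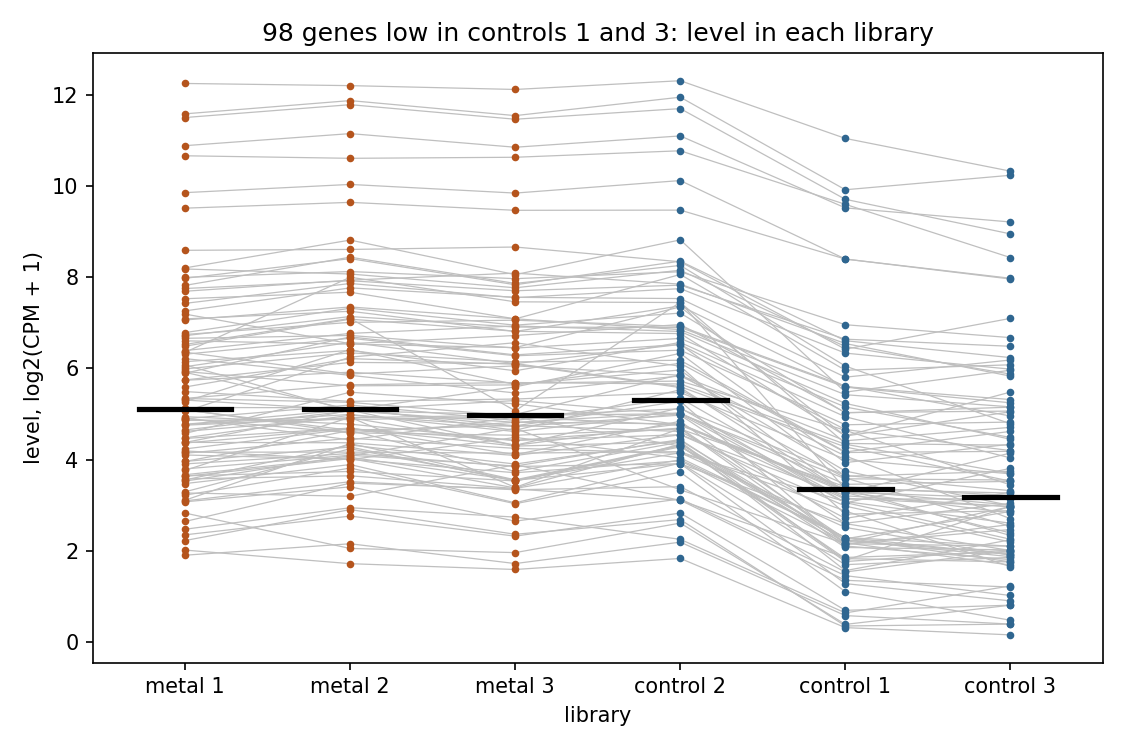
Level of each of the 98 genes, as log2(CPM + 1), in each library, with metal libraries in orange and control libraries in blue. Each grey line is 1 gene and each black bar the median, which stands at 38.8 CPM in control 2 and at 9.26 and 8.11 CPM in controls 1 and 3.

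Aterreus0G064410 was the most abundant member. It was at 4843, 4686 and 4422 CPM in metal 1, 2 and 3, and at 5050 CPM in control 2, 2102 CPM in control 1 and 1278 CPM in control 3. Control 2 was the highest of all 6 libraries for this gene, while controls 1 and 3 were the lowest. Its mean was 4650 ± 213 CPM in the metal libraries (SD, n = 3), and the mean of metal 1 to 3 and control 2 was 2.81 times that of controls 1 and 3. By length-corrected level it came second among the members, with mean FPKM (fragments scaled by gene length and library depth) of 2077 in metal 1 to 3 and control 2 and 753 in controls 1 and 3. Between the labelled groups, metal over control, edgeR put the log2 fold change at 0.73 ± 0.52 (SE; adjusted p = 0.63).

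Aterreus0G064650 had the largest gap in log2(CPM + 1), though other members had larger ratios of CPM. It was at 32.3, 74.98 and 93.5 CPM in metal 1, 2 and 3, and at 65.2 CPM in control 2, 6.003 CPM in control 1 and 6.38 CPM in control 3. The metal libraries spread widely, and control 2 lay inside their range. Controls 1 and 3 were nearly equal. Its log2 gap was 2.17, and the mean of metal 1 to 3 and control 2 was 10.7 times that of controls 1 and 3. In the labelled contrast edgeR put it at 1.34 ± 0.96 on the log2 scale (SE; adjusted p = 0.63).

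The next 4 members by level had the same outline as the first, with control 2 among the metal libraries or above them. The second was at 3054, 3734 and 2972 CPM in metal 1, 2 and 3, 3932 CPM in control 2, against 964 and 1201 CPM in controls 1 and 3; per length it was the highest member, with a mean of 2513 FPKM in metal 1 to 3 and control 2 and 810 FPKM in controls 1 and 3. The third was at 2888, 3509 and 2813 CPM in metal 1, 2 and 3, 3306 CPM in control 2, against 833 and 492 CPM in controls 1 and 3, the largest fold of these 5, at 4.72. Control 2 fell inside the metal range for the third gene and the fourth, and above it for the other 3 of these 5. The fourth was at 1883, 2261 and 1838 CPM in metal 1, 2 and 3, 2183 CPM in control 2, against 731 and 590 CPM in controls 1 and 3. The fifth was at 1615, 1554 and 1579 CPM in metal 1, 2 and 3, 1742 CPM in control 2, against 772 and 343 CPM in controls 1 and 3. For this gene the metal libraries were at 1582 ± 30.6 CPM (SD, n = 3), whereas controls 1 and 3 differed by more than their lower value.

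These 5 genes carried most of the group's RNA. The 98 genes held 2.17%, 2.46% and 2.10% of all counts in metal 1, 2 and 3, 2.49% in control 2, and 0.788% and 0.602% in controls 1 and 3. The mean over the metal libraries was 2.24% ± 0.19 (SD, n = 3), 3.23 times the mean of controls 1 and 3. By label, the 3 controls averaged 1.29% ± 1.04 (SD, n = 3), a spread set by control 2. The 5 most abundant members made up between 64.0% and 65.8% of the members' counts in the metal libraries, 65.2% in control 2, and 68.5% and 64.9% in controls 1 and 3, so the split within the group was alike on both sides. The other 93 members held 0.741%, 0.887% and 0.740% of counts in metal 1, 2 and 3, 0.864% in control 2, and 0.248% and 0.212% in controls 1 and 3. As a share of summed FPKM the members held 1.77%, 1.93% and 1.66% in metal 1, 2 and 3, 1.97% in control 2, and 0.613% and 0.482% in controls 1 and 3. The mirrored set, the 335 annotated genes that were high in controls 1 and 3 by the same gap, held 1.18%, 0.855% and 1.36% of counts in metal 1, 2 and 3, 0.995% in control 2, and 8.28% and 8.52% in controls 1 and 3.

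**Figure D2:**
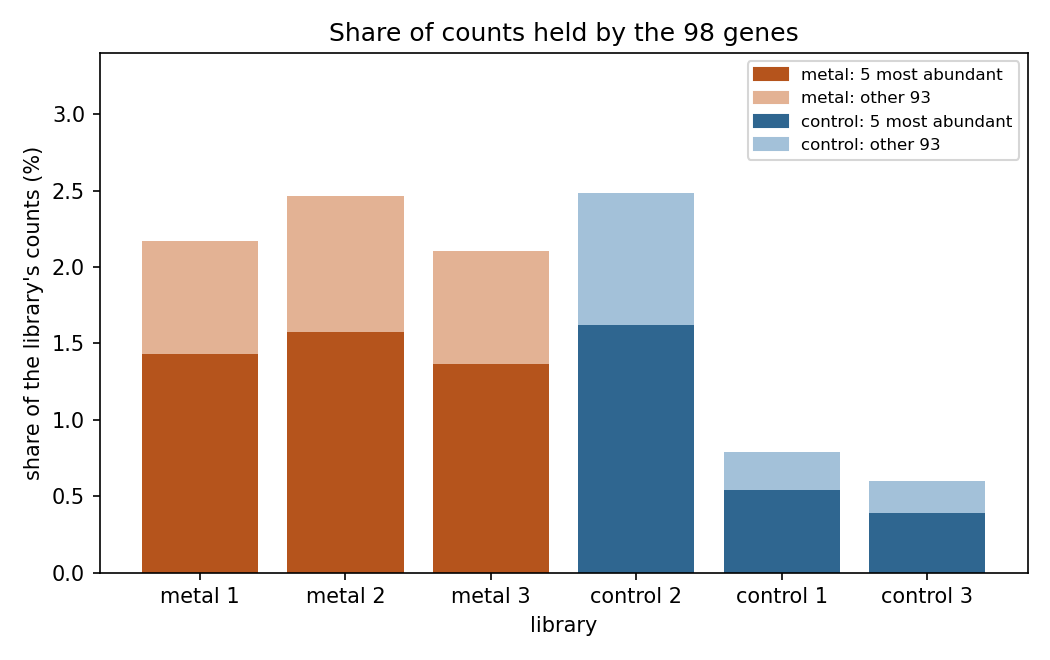
Share of each library's counts, in percent, held by the 98 genes, stacked as the 5 most abundant members (dark) and the other 93 (light). Metal libraries and control 2 stand between 2.10% and 2.49%, and controls 1 and 3 at 0.788% and 0.602%.

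The separation was graded and not an on-off difference. The median ratio of mean CPM, metal 1 to 3 and control 2 over controls 1 and 3, was 3.72 (quartiles 3.30 and 5.002, range 2.36 to 16.5), and 3.70 when control 2 was left out. In 13 members the ratio was under 3, in 60 it was from 3 to under 5, in 19 from 5 to under 10, and in 6 it was 10 or more. No member was at 0 counts in control 1 or control 3, and the fewest counts of any member in either was 3. In 91 members every library had at least 20 counts. The log2 gap, which the rule set at 1 or more, was 1.26 in the median member and reached 2.17. It was 2 or more in 5 of the 98 members (5.10%), against 91 of the 335 genes of the mirrored set (27.2%), whose gaps reached 5.02.

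The 2 largest ratios belonged to genes of very different level. The member of rank 95 was at 3.69, 6.50 and 4.16 CPM in metal 1, 2 and 3, 5.45 CPM in control 2, against 0.281 and 0.319 CPM in controls 1 and 3. Its counts were 122, 212 and 146 in metal 1, 2 and 3, 163 in control 2, and 9 and 8 in controls 1 and 3, so its ratio of 16.5 rests on few counts on the lower side. The member of rank 28 was at 91.1, 136 and 32.6 CPM in metal 1, 2 and 3, 174 CPM in control 2, against 9.26 and 4.06 CPM in controls 1 and 3, a ratio of 16.3. This gene had the widest spread within the metal group of any member, 2.02 log2 units, and control 2 was its highest library.

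Members of low level had somewhat larger ratios. The 33 members of lowest level, from 2.49 to 22.5 CPM, had a median ratio of 4.79, and the 33 of highest level, from 79.4 to 4750 CPM, one of 3.37. On the log2(CPM + 1) scale the median differences were nearly equal, 1.81 in the members of lowest level and 1.77 in those of highest level, since the pseudocount compresses the differences of low genes and the rule works on that scale. The Spearman correlation between level and log2 difference was -0.06 across the 98 genes, which share the same 6 libraries.

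Just inside the threshold, the 3 members with the smallest gaps had gaps of 1.007, 1.006 and 1.005 log2 units. Just outside it, 3 genes with gaps of 0.999, 0.997 and 0.996 were not members. The last member inside was at 39.6, 48.9 and 50.6 CPM in metal 1, 2 and 3, 49.5 CPM in control 2, against 19.2 and 12.0 CPM in controls 1 and 3. The first gene outside was at 95.8, 132 and 85.9 CPM in metal 1, 2 and 3, 118 CPM in control 2, against 42.5 and 29.0 CPM in controls 1 and 3. Below the threshold, a further 269 annotated genes had gaps from 0.5 to under 1. All 4 libraries of the higher side were above both controls 1 and 3 in 1763 of 10784 annotated genes (16.3%), so the 98 are the upper end of a continuous range.

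The rule does not use the order of libraries within a side, though it does use the lowest of the 4, and that order is described here. Control 2 lay inside the range of the 3 metal libraries in 53 of the 98 members, above all of them in 33 (33.7%) and below all of them in 12 (12.2%). Among the 7891 annotated genes with at least 1 CPM in each of the 4 libraries, control 2 was above all metal libraries in 20.1% and below all of them in 31.9%. The median of metal mean minus control 2 was -0.14 log2 units in the members (quartiles -0.34 and 0.03, range -1.22 to 0.76) and 0.04 in those 7891 genes. With library sizes scaled by the trimmed mean of M-values (TMM) the median was -0.18 in the members and 0.0032 in the 7891 genes, so the members' sign was the same under both scalings. The 4 libraries were all required to be high, and this did not bind on each of them alike. Applied without metal 3 the rule gave 132 genes, against 104 without metal 1, 105 without metal 2 and 104 without control 2. The orders within the higher side, and the test of metal against control 2, thus use values that the rule cut off from below.

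Tested by itself, this difference passed the threshold in no member. With controls 1 and 3 left out, edgeR's quasi-likelihood test of the 3 metal libraries against control 2 called 0 of the 98 members higher and 0 lower in metal at a Benjamini-Hochberg adjusted p under 0.05. Over all 10028 features tested it called 0.0199% higher and 0.0698% lower. The fit takes control 2, a lone library, to vary as the metal libraries do. At an unadjusted p under 0.05, 0 members were higher and 10 lower in metal (10.2%), against 4.04% of all features higher and 2.76% lower. The median log2 fold change of the members was -0.17, against 0.02 over all features, and 25 of the 98 were above 0. That median was -0.13 without metal 1, -0.24 without metal 2 and -0.14 without metal 3, against 0.02 over all features each time. Its size varied with the library left out, and its sign did not. DESeq2 called 1 member, the gene of rank 27, lower in metal and 0 higher, against 0.227% of the features it tested lower and 0.148% higher. That gene was at 96.3, 91.5 and 86.8 CPM in metal 1, 2 and 3, 162 CPM in control 2, against 21.9 and 32.1 CPM in controls 1 and 3. Its metal libraries were close together, with control 2 well above them. The DESeq2 log2 fold change was -0.87 ± 0.21 (SE, adjusted p = 0.00994), and edgeR gave -0.87 ± 0.15 with an adjusted p of 0.21.

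**Figure D3:**
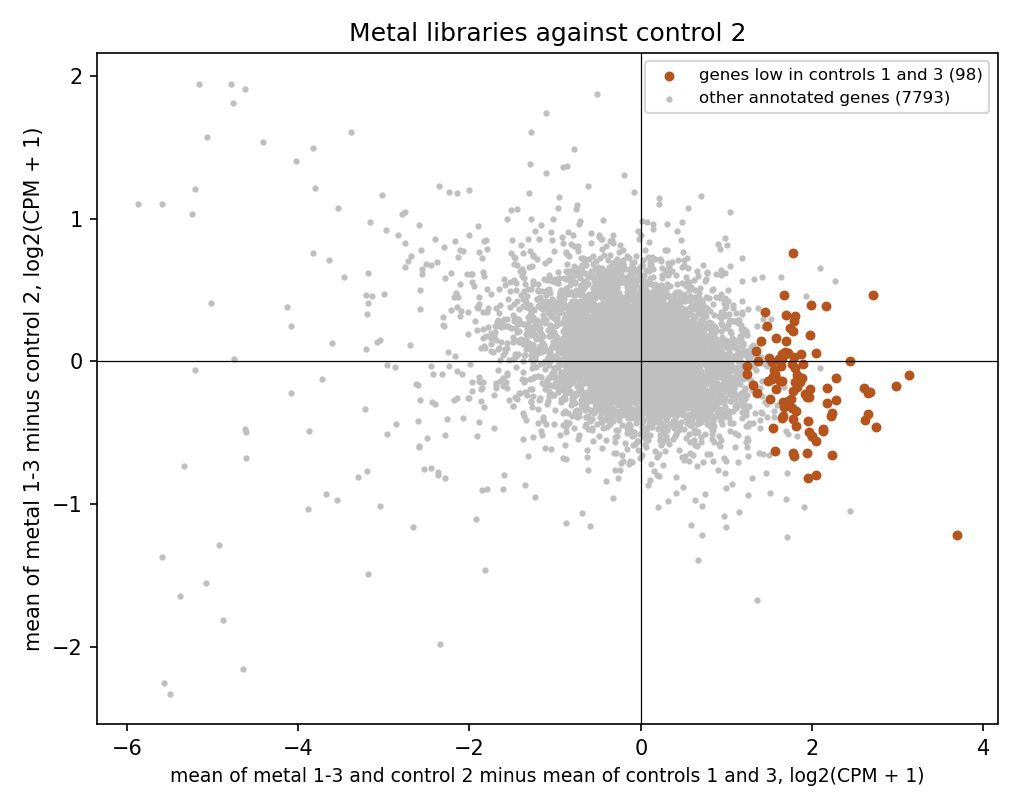
Mean of metal 1 to 3 minus control 2 (vertical) against the mean of metal 1 to 3 and control 2 minus the mean of controls 1 and 3 (horizontal), both in log2(CPM + 1), for the 98 genes (orange) and 7793 other annotated genes (grey). The horizontal position was fixed by the rule and control 2 enters both axes; on the vertical axis the members run from -1.22 to 0.76 around a median of -0.14.

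Among the 4 higher libraries, metal 3 was the lowest in 50 members (51.0%) and metal 2 in 7 (7.14%). Over the 7891 genes metal 3 was the lowest in 25.8% and metal 2 in 18.7%. Metal 2 was the highest library in 39 members (39.8%), near its 33.4% of the 7891 genes. Control 2 was the highest in 33 members (33.7%, against 20.1%), metal 1 in 15 (15.3%, against 25.6%) and metal 3 in 11 (11.2%, against 20.9%). With TMM scaling metal 3 was the lowest library in 48 members (49.0%, against 23.3% of the 7891 genes). The order at the top turned under that scaling, with control 2 the highest in 42 members (42.9%, against 25.8%) and metal 2 in 31 (31.6%, against 26.2%). The range across the 3 metal libraries had a median of 0.44 log2 units in the members, and of 0.31 in the 7891 genes. Both were smaller than the members' median difference of 1.78 between the sides, which the rule chose to be large.

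The order of controls 1 and 3 is described in the same way. Control 3 was below control 1 in 62 of the 98 members (63.3%), against 43.2% of the 7891 genes. The median of control 1 minus control 3 was 0.19 log2 units in the members and -0.08 in the 7891 genes, with quartiles of -0.12 and 0.52 in the members. In 8 members the 2 libraries were more than 1 log2 unit apart (8.16%, against 6.12% of the 7891 genes). With 1 library on each side this comparison has no replicates and was not tested. The rule uses the higher of controls 1 and 3, so it cut off the members' values from above, which does not hold for the 7891 genes at large.

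Between the groups as labelled, none of the 98 genes passed. In the edgeR quasi-likelihood test of metal against control with all 6 libraries, 0 members were called higher and 0 lower at a Benjamini-Hochberg adjusted p under 0.05, as was the case for 0% of the 9698 features tested. At an unadjusted p under 0.05, 7 members were higher (7.14%), against 1.86% of all features, and 0 were lower, against 6.75%. DESeq2 also called 0 members in either direction, of the 94 to which it gave an adjusted p, where 0.0956% of its features were called higher and 1.3% lower. The members' median edgeR log2 fold change was 0.86, with a median SE of 0.59, and all 98 were above 0; the rule fixes this direction, since 2 of the 3 controls are the low ones. All 3 metal libraries were above all 3 controls in 12 members (12.2%), against 5.81% of the features tested, and the rule fixes this comparison for controls 1 and 3, so nothing is read from it. In the other 86 members control 2 was above at least 1 metal library. Without control 2, the contrast is the one the rule was built on: edgeR then called all 98 members higher and 0 lower, against 6.56% and 10.2% of 9935 features, with log2 fold changes from 1.29 to 4.06 and a median of 1.97. Nothing is read from that count.

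Gene lengths were implied from the deposited tables, as a count divided by its FPKM, by the library's depth and by a fitted factor per library. The median over the 98 members was 1963 bases (quartiles 1403 and 2617, range 662 to 8172). The 7891 annotated genes with at least 1 CPM in each of the 4 libraries had a median of 1817 bases, with quartiles of 1184 and 2752. Members over 1000 bases were 90 of 98 (91.8%), against 82.4% of the 7891 genes, and 9.18% of the members were over 4000 bases, against 9.80% of the 7891 genes. The mirrored set had a median of 1598 bases. Members thus included few short genes, while at the long end they were like the other genes, and no test of this was made. The fitted factors were 0.994, 1.05 and 1.05 in metal 1, 2 and 3, 0.992 in control 2, and 0.999 and 1.001 in controls 1 and 3. Without them, metal 2 and metal 3 imply greater lengths than the other libraries do. Once divided by them, 98.8% of the members' values with at least 20 counts followed 1 length per gene within 1%. The lengths are on a scale that takes the column sum as the depth.

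**Figure D4:**
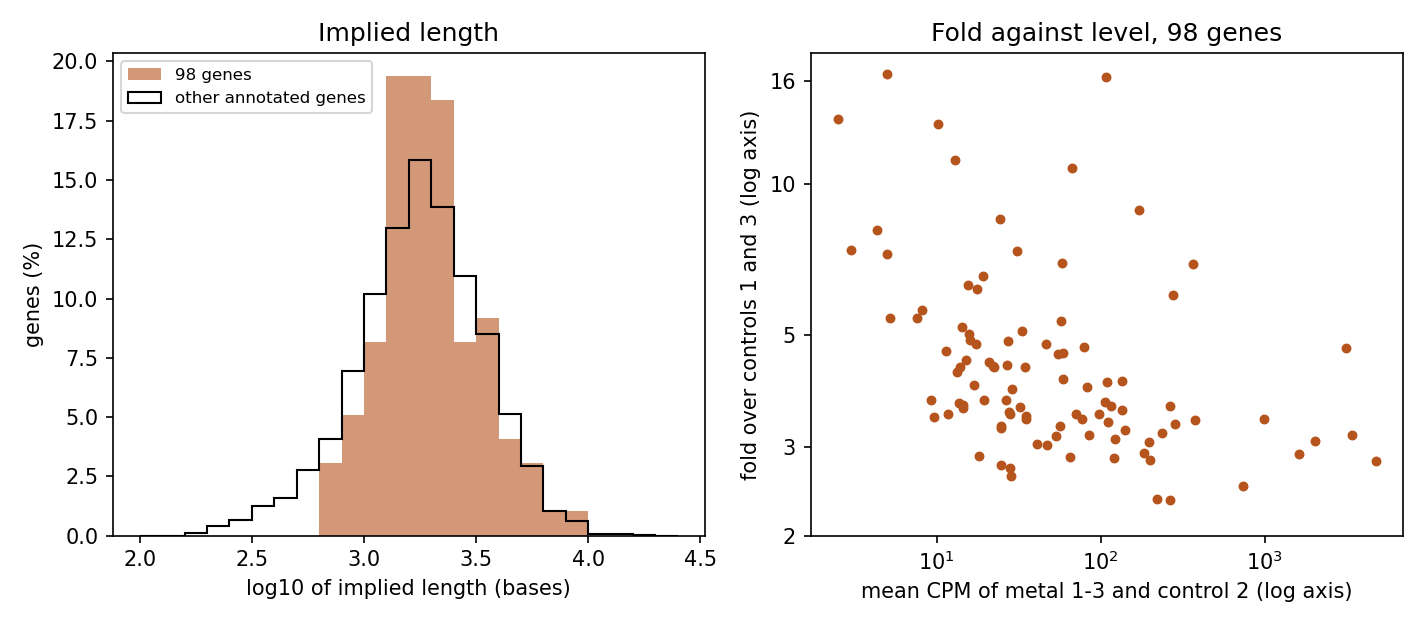
Left, the distribution of implied length, as log10 of bases, for the 98 genes (filled) and the other 7793 annotated genes (line). Right, the ratio of mean CPM, metal 1 to 3 and control 2 over controls 1 and 3, against the mean CPM of metal 1 to 3 and control 2 for each of the 98 genes, both on log axes; ratios run from 2.36 to 16.5.

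Implied length is set beside the difference as a description, since the rule selected on the difference and cut off its lower range. Across the 98 genes the Spearman correlation of implied length was -0.12 with the log2 difference and 0.11 with the level. Over the 7891 genes the correlation of implied length with the same log2 difference was 0.15.

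The annotated identifiers carry numbers that run from 1 to 10784 without a gap, once divided by their step of 10. The files do not say that these numbers follow the genome. The members were spread over the whole range, with 5 to 18 in each 10% of the numbers and a median of 79 numbers from a member to the next. Most stood alone: 84 of the 98 had no other member at the adjoining number. The other 14 (14.3%) formed 7 pairs of consecutive numbers, and no 3 members were consecutive. It depended on the pseudocount: among the 55 genes that met the rule with a pseudocount of 5, 0% had another at the adjoining number. Among the 155 genes that met it with a pseudocount of 0.1, the share was 16.1%. Applied without control 2, the rule gave 104 genes, of which 15.4% adjoined another. In the mirrored set 101 of 335 genes (30.1%) had another of the set at the adjoining number, in runs of up to 6. A larger set meets itself more often, so the places beside members were also counted. Of the 196 places next to a member, 14 were held by a member (7.14%), against 0.909% of all annotated identifiers. For the mirrored set it was 122 of 670 places (18.2%), against 3.11% of identifiers. At 2 and 3 numbers away members held 2.04% and 3.06% of places, at 10 numbers away 0% and at 50 numbers away 2.04%.

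**Figure D5:**
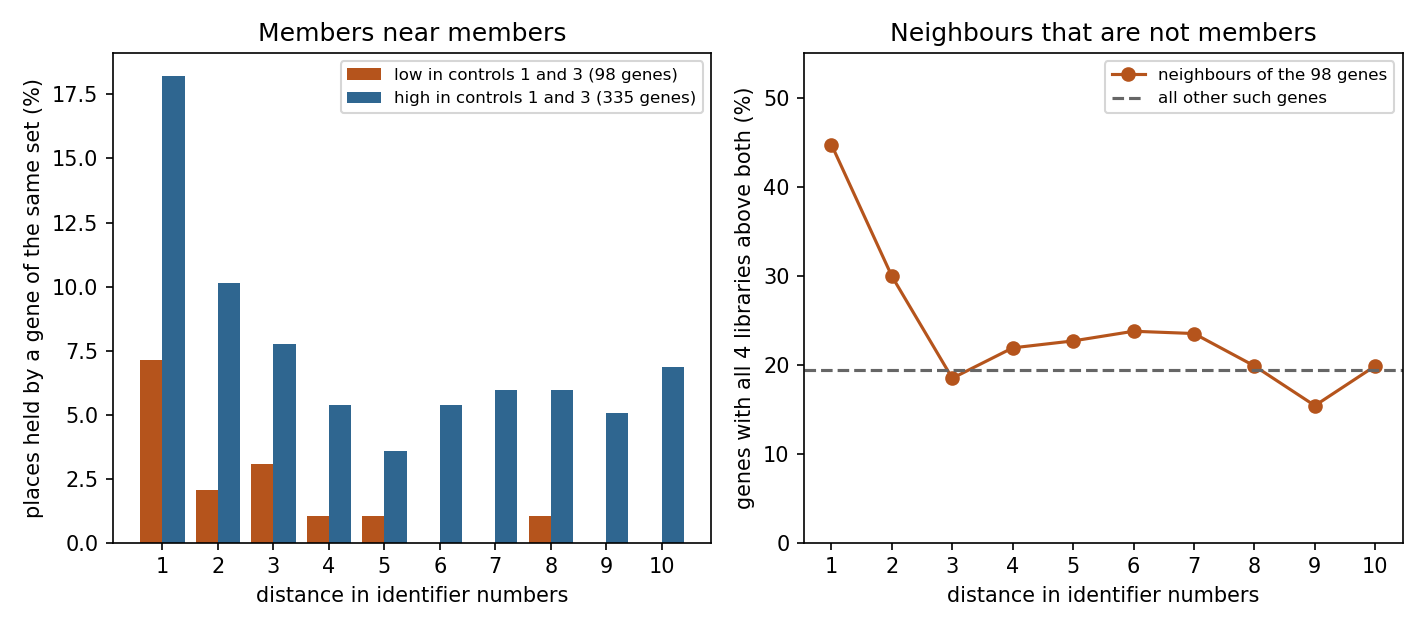
Left, percent of the places at each distance in identifier numbers that were held by a gene of the same set, for the 98 genes (orange) and the 335 of the mirrored set (blue); members held 7.14% of places at distance 1 and 0% at distance 10. Right, percent of non-member neighbours with metal 1 to 3 and control 2 all above controls 1 and 3, beginning at 44.7% at distance 1, with the level of all 7793 such genes (19.4%) as a dashed line.

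Genes beside a member that were not members leaned the same way. Among 123 such direct neighbours with at least 1 CPM in each of the 4 libraries, the median of metal 1 to 3 and control 2 minus controls 1 and 3 was 0.33 log2 units, and 83 were above 0 (67.5%). Over all 7793 non-members the median was -0.06 and 44.8% were above 0. All 4 libraries were above both controls 1 and 3 in 55 of the 123 (44.7%), against 19.4% of the 7793. Without control 2, the metal libraries were all above controls 1 and 3 in 58 of the 123 (47.2%), against 21.7% of the 7793. At 2 numbers away, with control 2, the median was 0.02 and this share 29.9%. At 3 numbers away the median was 0.01 and the share 18.5%, close to that of all non-members. Reads shared by overlapping genes would raise the values of direct neighbours; neither positions nor strandedness is given in the sources used here, and the part of shared reads was not tested.

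The 7 pairs differed in how their genes compare in level. In 2 pairs a strong gene stood beside a weak one. The third most abundant member was paired with the member of rank 94, which was at 4.12, 5.80 and 4.01 CPM in metal 1, 2 and 3, 6.12 CPM in control 2, against 0.625 and 0.757 CPM in controls 1 and 3. The weak gene's counts were between 0.143% and 0.185% of the strong gene's in metal 1 to 3 and control 2, and 0.0751% and 0.154% in controls 1 and 3. The other such pair joined ranks 11 and 97, and the weak gene there had 0.996% to 1.22% of the strong gene's counts in metal 1 to 3 and control 2, and 0.766% and 1.20% in controls 1 and 3. In both pairs the proportion varied less between libraries than the levels did, and it was lowest in control 1.

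In the remaining 5 pairs the genes were nearer in level, the weaker having between 12.1% and 92.8% of the stronger gene's counts in metal 1 to 3 and control 2. Of the 7 pairs, 4 shared the highest of the 4 libraries and 5 shared the lowest, by values that the rule cut off from below. Among all 6389 pairs of consecutive identifiers that both had at least 1 CPM in each of the 4 libraries, 30.8% shared the highest and 29.8% the lowest. Those pairs are not matched to the members, in which metal 3 was the lowest library in 51.0%, against 25.8% of the 7891 genes. Nothing is read from the shared orders. Which of controls 1 and 3 was lower was shared by 3 of the 7 pairs, and by 56.1% of all such pairs. The pair of ranks 78 and 89 was at 8.65, 8.19 and 13.8 CPM (the rank 89 gene) and 10.6, 16.01 and 24.7 CPM (the rank 78 gene) in metal 1, 2 and 3. Both genes were highest in metal 3 and lowest, of the 4, in control 2, at 7.62 and 9.13 CPM; in controls 1 and 3 they were at 2.63 and 2.95 CPM and at 3.47 and 3.31 CPM.

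Allowing steps of up to 3 numbers gave 9 groups, 2 of them with 3 members. The stronger of these spanned 4 numbers. Its first member was at 37.7, 84.2 and 49.2 CPM in metal 1, 2 and 3, 61.5 CPM in control 2, against 8.76 and 7.93 CPM in controls 1 and 3. Its last was at 80.8, 254 and 175 CPM in metal 1, 2 and 3, 173 CPM in control 2, against 19.5 and 19.0 CPM in controls 1 and 3. All 3 members and the gene between them were highest in metal 2 and lowest, of the 4, in metal 1. The gene between, which missed the rule with a gap of 0.43, was at 18.9, 50.1 and 35.5 CPM in metal 1, 2 and 3, 38.8 CPM in control 2, against 9.32 and 13.8 CPM in controls 1 and 3. The other group of 3 members spanned 5 numbers, and the 2 genes inside it that were not members had gaps of -0.92 and 0.61.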

How the data were processed

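RNA was extracted with TRIzol and libraries were made with a NEBNext Ultra RNA kit, per the labels' protocols. The authors deposited whole-number counts per gene and FPKM values for the 6 libraries. TopHat2 and DESeq are named in the submitters' processing notes; how reads were counted, on which build and annotation, with which strand setting, and how FPKM was computed is not given in the sources used here. There were 0 columns of other samples.

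Members were found as stated in the report, with CPM by column sum and a pseudocount of 1. The members, the mirrored set and the tests were chosen with earlier results of these data known. The identifiers to be printed were to be those of the highest mean CPM and of the largest gap.

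Counts were tested with edgeR 4.0.16 in R 4.3.3 (filterByExpr, TMM, robust quasi-likelihood F test, no block; Benjamini-Hochberg over all tested features, threshold 0.05). SEs are the fold change over the root of F. The procedure was tested on simulated data. Alternatives were DESeq2 1.42.0, limma-voom (limma 3.58.1), RLE or total-count scaling, other filters, the replicate block, libraries left out, and other pseudocounts, gaps and units for the rule. Depth gives counting precision only.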

Additional observations from a re-analysis of the deposited data

How the results depend on the processing

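The labelled contrast called 0 members in either direction under every scaling, filter and tool tried, and with the replicate number as a block (0 higher, 0 lower; 65 members higher at an unadjusted p under 0.05, where 4.10% of all features were, against 7 members and 1.86% without the block). Same-numbered libraries had correlations of deviations of 0.07, 0.16 and 0.17, and metal 1 and metal 3 correlated better with a control of another number (0.10 and 0.23), so the number is not taken to pair samples. With libraries left out 1 at a time, the members called higher ran from 0 to 98, the 98 without control 2. Against control 2 alone, DESeq2 called 1 member lower and edgeR 0 with any metal library left out. Without control 2, chosen after seeing the data, a further library left out gave 90 to 97 members called higher. The number of members was 155 with a pseudocount of 0.1, 55 with 5, 367 with a gap of 0.5 and 5 with a gap of 2. The rule without 1 library gave 104 to 319 genes, with 319 without control 1 and 248 without control 3. The rule without control 2 gave 104, including all 98. TMM-scaled CPM gave 116 genes, including all 98, and FPKM 77, of which 75 were members. The members' mean share in the metal libraries was 1.79% of FPKM, and 1.78% of counts without the most abundant gene. Of the 55 genes left by a pseudocount of 5, 0% adjoined another. The share was 16.1% with a pseudocount of 0.1, 18.97% by TMM-scaled CPM and 12.99% by FPKM, against 14.3% by the rule as stated. The 14 members in pairs had a median of 16.9 CPM over metal 1 to 3 and control 2, and the other members 46.97 CPM. Of those 14, 9 were under 25 CPM, as were 37 of all 98 members. Whether this lower level accounts for the 0% was not tested. Low counts limit the ratios of rare members.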

Other observations

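Of the 896 features marked as new genes, 2 met the same rule (0.223%), against 0.909% of the annotated identifiers. These shares are over sets of unlike level. At least 1 CPM in each of metal 1 to 3 and control 2 was reached by 299 of the 896, and by 7891 of the 10784 annotated identifiers. The first was at 1.33, 1.69 and 2.48 CPM in metal 1, 2 and 3, 2.21 CPM in control 2, against 0.0625 and 0 CPM in controls 1 and 3. The second was at 5.20, 4.66 and 4.73 CPM in metal 1, 2 and 3, 6.48 CPM in control 2, against 1.75 and 1.12 CPM in controls 1 and 3. Both were rare transcripts. By the mirrored rule there were 7 new genes.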
